A study of Mus musculus with 2 samples.

Results

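The transcripts followed here are those of 10 genes that are switched on by fibroblast growth factor (FGF) signalling through the kinase ERK: *Spry1*, *Spry2*, *Spry4*, *Dusp6*, *Etv1*, *Etv4*, *Etv5*, *Spred1*, *Spred2* and *Egr1*. FGF ligands bind receptor tyrosine kinases, which act through adaptors and RAS on the RAF, MEK and ERK kinases. ERK then induces ETS-family transcription factors (*Etv1*, *Etv4*, *Etv5*) and a set of feedback inhibitors: Sprouty and SPRED proteins, which damp the cascade between receptor and RAF, and DUSP6, a phosphatase that removes the activating phosphates from ERK. In the embryonic kidney and ureter this route is known for its part in the growth and branching of the ureteric bud, and the levels of these transcripts are a common readout of it.

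The ureters were taken from wildtype NMRI mouse embryos on the embryonic day written E11.5, cultured for 18 h without serum and pooled. One pool of each pair received 10 µM IWP-2, an inhibitor of Porcupine (PORCN), the enzyme that lipidates WNT ligands before they are secreted, and the control pool received the solvent DMSO at 2 parts in 1000. Each of 2 two-colour Agilent arrays set an IWP-2 pool against a control pool, with the dyes exchanged between array 1 and array 2. No group carried an altered allele, embryonic sex is not given in the labels, and both arrays were on 1 slide. Whole ureters hold epithelium, mesenchyme, vessels, blood and nerve cells, so fewer cells of a type and less RNA per cell cannot be told apart. The members were every probe whose gene name in the scanner files was 1 of the 10 symbols: 14 probes of 39429 on the array, for 10 genes of 29924. *Etv1* and *Etv4* had 2 probes, *Spred1* had 3 and the other 7 genes had 1.

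All 14 probes were measurable. Every one of their 112 spots stood well above background in both dyes, none was saturated, and 8 were left out as outliers. Over all spots, 68.6% to 70.7% were well above background in a channel. Of all genes, 20119 passed the filter on low signals, and the changes on the 2 arrays correlated with Pearson's r = 0.465 and Spearman's rho = 0.25 across these genes, which are not independent replicates. The WNT block was visible in its known targets: the log2 change (IWP-2 over control) was −1.45 and −1.17 for *Nkd1* on arrays 1 and 2, −1.06 and −1.17 for *Sp5*, −1.38 and −0.64 for *Axin2*, and −0.82 and −0.95 for *Lef1*. The adjusted p in limma was 0.0058, 0.0066, 0.0502 and 0.0137 in that order, so that *Axin2* narrowly missed the threshold of 0.05.

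Most of the response genes lay above, not below, the control level in mean value after WNT secretion was blocked. The mean of the 2 arrays was above 0 for 7 of the 10 genes, 6 were higher on both arrays (*Spry1*, *Spry2*, *Dusp6*, *Etv1*, *Spred2*, *Egr1*), and 1 was lower on both (*Spred1*). Among all tested genes 28.5% were higher on both arrays and 27.5% were lower on both. The median log2 change was 0.30 over the 10 genes, against 0.00 over all genes, with 0.18 on array 1 and 0.31 on array 2. No response gene passed the threshold of an adjusted p of 0.05 in limma, where 0.611% of all genes passed as higher and 1.15% as lower. At an unadjusted threshold of 0.05 in the same fit, 5 of the 10 were higher (*Spry1*, *Dusp6*, *Etv1*, *Spry2*, *Egr1*) and 0 lower, beside 8.67% and 4.74% of all genes. When each array was only centred on its median in place of a loess curve, 1 of the 10 was past that unadjusted threshold.

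**Figure D1:**
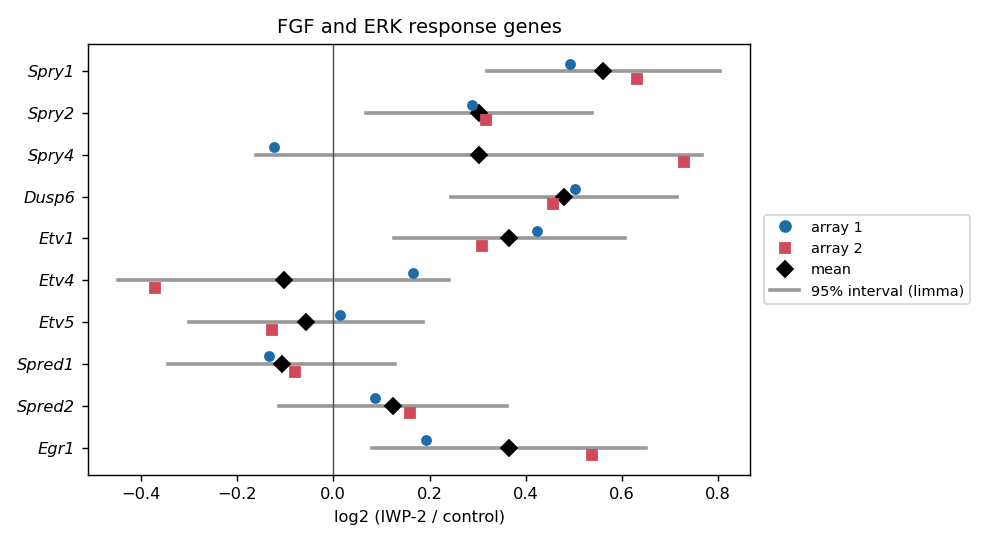
Log2 change of the 10 response genes (x axis) on array 1 (circles) and array 2 (squares), 1 gene a row, with the mean (diamonds) and limma's 95% interval (grey bars). *Spry1*, *Spry2*, *Dusp6*, *Etv1* and *Egr1* have intervals above 0, while the arrays lie on opposite sides of 0 for *Spry4*, *Etv4* and *Etv5*.

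The Sprouty genes gave the highest value of the set. *Spry1* encodes an inhibitor of receptor tyrosine kinase signalling that is known to hold back bud outgrowth from the nephric duct. Its processed intensity was 2547 in IWP-2 and 1853 in control ureters on array 1, and 2908 and 1867 on array 2. Both treated pools were above both control pools. The share of all genes whose pools separate in this way was not counted, here or for the genes below. With the brightest probes, the pools also separated upwards for *Spry2*, *Dusp6*, *Etv1*, *Spred2* and *Egr1*, and downwards for *Spred1*. Such a separation is therefore not taken as a sign of a change. The log2 change was 0.49 and 0.63, with spots from 0.47 to 0.53 on array 1 and from 0.60 to 0.65 on array 2. This came to a mean of 0.56 ± 0.10 (SD, n = 2 arrays; 1.48-fold), with a 95% interval from 0.32 to 0.80. Of all tested genes, 1.36% had a larger mean increase. The adjusted p in limma was 0.0557 over genes and 0.0449 over the 26947 tested probes, where 0.824% of probes passed as higher. The probe table was fitted anew, so both the fit and the adjustment differ between these values. The study that reported these arrays used *Spry1* as an FGF readout. By in situ hybridization its epithelial signal appeared reduced in older embryos lacking mesenchymal *Ctnnb1*. That direction is opposite to the one here, but stage, perturbation and measure all differ.

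*Spry2*, the relative of *Spry1* expressed in the same bud epithelium, showed a smaller difference. Its processed intensity was 160 against 130 on array 1 and 166 against 131 on array 2, so that treated and control pools did not overlap. Its log2 change of 0.29 and 0.32 gave a mean of 0.30 ± 0.02 (SD, n = 2 arrays; 95% interval 0.07 to 0.54), with an adjusted p of 0.237 in limma. *Spry4*, another Sprouty gene and a common reporter of FGF activity, was the member on which the arrays differed most. Its dim probe read 52.5 in IWP-2 against 58.8 in control on array 1 and 66.8 against 34.5 on array 2. This gave a log2 change of −0.12 on the first and 0.73 on the second array. The spots did not mix: all 4 lay below 0 on array 1 and all 4 from 0.68 to 0.78 on array 2. The mean of 0.30 ± 0.60 (SD, n = 2 arrays) had an interval from −0.16 to 0.77 and an adjusted p of 0.660 in limma, and a direction for *Spry4* cannot be given.

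*Dusp6*, the ERK phosphatase, had nearly the same value on both arrays. The processed intensity was 4434 in IWP-2 and 3182 in control ureters on array 1, and 4375 and 3203 on array 2. The pools of each group lay close together and the groups did not overlap. The log2 change was 0.50 and 0.46, a mean of 0.48 ± 0.03 (SD, n = 2 arrays; 1.39-fold) with a 95% interval from 0.24 to 0.71. The adjusted p was 0.0774 in limma, and 2.40% of all genes had a larger mean increase. With a spread prior that follows intensity and is robust to outlying genes, the adjusted p was 0.0489 for *Dusp6* and 0.0242 for *Spry1*. With processed intensities it was 0.123 and 0.104, without the filter on dim probes 0.104 and 0.0940, and with median centring 1.00 and 0.780.

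The PEA3-group ETS factors, which carry the ERK signal to target genes, differed in direction: 1 was higher on both arrays and the other two had opposite signs on the arrays. *Etv1* was higher on both arrays. Its brighter probe read 1001 against 765 on array 1 and 1129 against 907 on array 2, with log2 changes of 0.42 and 0.31 (mean 0.37 ± 0.08, SD, n = 2 arrays; 95% interval 0.13 to 0.61; adjusted p in limma 0.164). Its second, dim probe read 43.1 against 39.1 and 46.5 against 40.3, with changes of 0.12 and 0.15. Both *Etv1* probes thus lay above 0 on both arrays, but by unequal amounts.

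*Etv4*, in the mouse kidney known from the bud tips downstream of RET and FGF receptors, differed in sign between the arrays. Its brighter probe read 431 in IWP-2 against 362 in control on array 1, and 385 against 514 on array 2. On the log2 scale this was 0.17 and −0.37 for this probe, and 0.02 and −0.44 for the second. On array 2 all 8 spots of both probes lay at −0.30 or lower. The mean for the brighter probe was −0.10 ± 0.38 (SD, n = 2 arrays; 95% interval −0.45 to 0.24), with an adjusted p of 0.911 in limma. *Etv5*, which works together with *Etv4* in those tips, read 1423 against 1308 on array 1 and 1311 against 1473 on array 2. Its change was 0.01 and −0.13, with a mean of −0.06 ± 0.10 (SD, n = 2 arrays; 95% interval −0.30 to 0.19; adjusted p 0.940). The interval for *Etv5* leaves room for a change of up to 1.14-fold upwards and down to 0.812 of the control level.

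The SPRED genes, which encode Sprouty-related inhibitors that bring neurofibromin to RAS, were close to the control level. *Spred1* read 1749 against 1889 on array 1 and 1793 against 1919 on array 2 with its brightest probe, with changes of −0.13 and −0.08 (mean −0.11 ± 0.04, SD, n = 2 arrays; 95% interval −0.34 to 0.13; adjusted p in limma 0.815). The second probe gave −0.17 and −0.03. The third, which the array design assigns to another transcript of the gene, read from 17.8 to 26.3 and gave 0.00 and −0.34. *Spred2* read 145 against 133 and 149 against 132, with changes of 0.09 and 0.16 (mean 0.12 ± 0.05, SD, n = 2 arrays; 95% interval −0.11 to 0.36; adjusted p 0.765). For neither gene did the difference pass the test, and the intervals include 0.

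*Egr1*, an immediate-early zinc finger gene that serum response factor and ELK proteins induce within minutes of ERK activation, was higher on both arrays by unequal amounts. It read 1314 in IWP-2 against 1138 in control on array 1 and 1327 against 916 on array 2. Treated and control values did not overlap. The log2 change was 0.19 and 0.54, a mean of 0.37 ± 0.24 (SD, n = 2 arrays; 95% interval 0.08 to 0.65), with an adjusted p of 0.239 in limma.

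**Figure D2:**
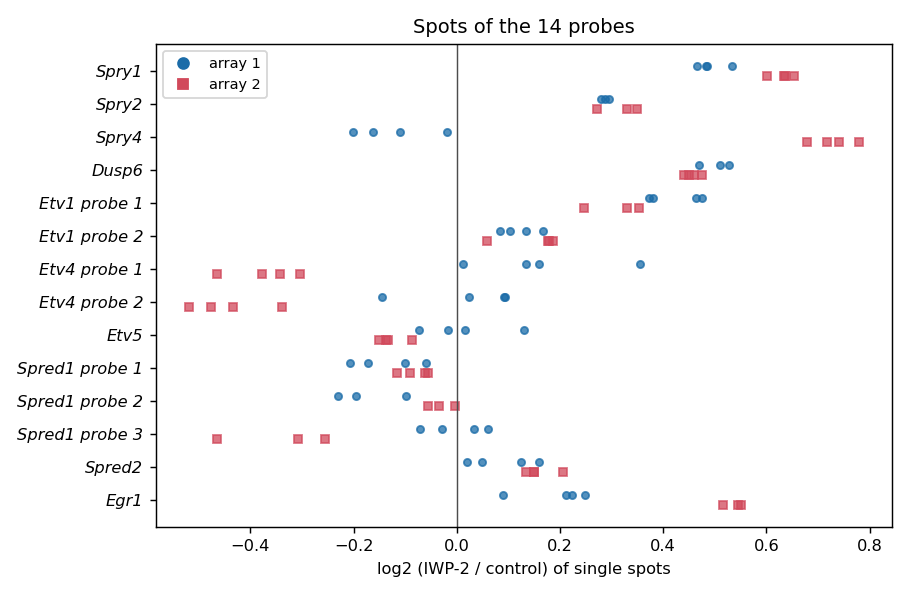
Log2 ratio (x axis) of each spot that was not an outlier, for the 14 probes (rows, brightest probe of a gene first), on array 1 (circles) and array 2 (squares). Spots of a probe on 1 array are technical repeats of 1 pair of pools, and for *Spry4* and the brighter *Etv4* probe all spots of one array lie above 0 and all of the other below.

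The same genes were set against a fixed filter on intensity and fold change like that of the study. It was applied here as a processed intensity of 100 or more in the brighter channel, a channel the study does not name, and a change of at least 2-fold the same way on both arrays. Of the 10 genes, 9 were bright enough (all but *Spry4*), and 0 were retained, whereas 0.419% of the 14549 genes that were bright enough passed. The processed ratios of the 10 genes ran from 0.750 (*Etv4*, array 2) to 1.93 (*Spry4*, array 2). Lowering the fold limit to 1.5 also retained 0 of the 10 genes. For *Spry1* the ratios were 1.37 and 1.56, and for *Dusp6* 1.39 and 1.37.

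The sites read by the probes, as the array design places them on mouse build mm9, were chr3:37543403-37543462 for *Spry1* (plus strand), chr10:98729985-98730044 for *Dusp6* (plus strand) and chr14:106291845-106291904 for *Spry2* (minus strand). The brighter *Etv1* probe lay at chr12:39593054-39593113 and the second at chr12:39594622-39594681, both on the plus strand. The *Etv4* probes lay at chr11:101631057-101631116 (brighter) and chr11:101631322-101631381 on the minus strand. An annotation of mm9 was not used here, so exon and UTR are not stated. The first 30 of the 60 bases of 4 probes are shown, because the 2 probes of *Etv1* differed in the size of the change and the 2 probes of *Etv4* shared its change of sign. Nothing in them is in capitals.
Etv1 brighter probe: tcacaggccagtagcattttatgtatctgg
Etv1 second probe: gactctgacttactctaacggatcaaaaga
Etv4 brighter probe: taattccacctttgcctcttatgccagacc
Etv4 second probe: agatccagtgttctattctggggacataca

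The 250 bases before the RefSeq start (build GRCm38.p6) are shown for *Spry1*, *Dusp6* and *Etv1*, the 3 genes with the largest mean increase. The windows are chr3:37639697-37639946, chr10:99262981-99263230 and chr12:38779832-38780081, all on the plus strand, and *Etv1* has a second RefSeq start that is not shown. Both strands were searched for the ETS core GGAA, the longer ETS motif CCGGAAG that contains it, the TCF/LEF motif CTTTGA, the cAMP-response motif TGACG and the AP-1 motif TGANTCA. Matches are in capitals, and a match on the other strand reads as its reverse complement (TTCC for GGAA).
Spry1: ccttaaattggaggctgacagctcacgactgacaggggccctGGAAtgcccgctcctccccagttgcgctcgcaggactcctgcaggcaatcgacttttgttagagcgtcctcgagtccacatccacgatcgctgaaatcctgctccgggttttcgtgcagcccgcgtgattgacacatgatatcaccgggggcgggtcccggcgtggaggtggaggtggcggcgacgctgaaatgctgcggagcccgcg
Dusp6: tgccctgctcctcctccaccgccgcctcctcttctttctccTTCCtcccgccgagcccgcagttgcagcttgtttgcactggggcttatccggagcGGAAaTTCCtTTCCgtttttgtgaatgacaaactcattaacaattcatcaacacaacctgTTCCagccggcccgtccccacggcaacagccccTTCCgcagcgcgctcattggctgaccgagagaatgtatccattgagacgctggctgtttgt
Etv1: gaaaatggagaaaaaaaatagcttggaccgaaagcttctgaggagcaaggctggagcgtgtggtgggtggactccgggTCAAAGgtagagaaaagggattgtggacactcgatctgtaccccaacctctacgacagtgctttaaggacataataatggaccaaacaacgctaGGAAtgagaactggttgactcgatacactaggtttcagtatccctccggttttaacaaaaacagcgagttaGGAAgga

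The *Dusp6* window held 6 matches to GGAA, the *Spry1* window 1 and the *Etv1* window 2. GGAA was present in 93.4% of the 32851 windows of this length, so its presence sets none of these genes apart. CCGGAAG was in none of the 3 windows and in 6.91% of all. CTTTGA was in the *Etv1* window only, 172 bases before the start, and in 13.8% of all windows. TGACG and TGANTCA were in none of the 3 and in 17.8% and 6.75% of all. These are matches of letters and were not tested for binding.

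The other genes of the pathway were read from a list of 93 genes in 5 roles, of which 83 were bright enough to test. Over these the median log2 change was 0.00, with 26 genes higher on both arrays (31.3%) and 25 lower on both (30.1%), close to the shares over all genes. One of them passed the threshold in limma, and it was a ligand. *Fgf7*, made in mesenchyme and read by the epithelial form of FGFR2, stood at a processed intensity of 311 in IWP-2 against 183 in control on array 1 and 307 against 133 on array 2. On the log2 scale it changed by 0.74 and 1.13, a mean of 0.94 ± 0.28 (SD, n = 2 arrays; 1.92-fold; 95% interval 0.64 to 1.24; adjusted p 0.0231). Only 0.194% of all genes had a larger mean increase. The call for *Fgf7* was lost in 4 of 8 other settings, among them median centring (adjusted p 0.175), while its change stayed between 0.92 and 0.98.

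Of the 22 listed ligands, 16 were tested. *Fgf2*, *Fgf3*, *Fgf4*, *Fgf16*, *Fgf20* and *Fgf21* were too near background. Besides *Fgf7*, 4 ligands were higher on both arrays and 4 lower on both, and none of these passed the test. *Fgf9*, an epithelial ligand that acts on mesenchyme, read 311 against 388 and 319 against 395, with changes of −0.33 and −0.28 (mean −0.30 ± 0.04, SD, n = 2 arrays; 95% interval −0.54 to −0.07; adjusted p in limma 0.237). *Fgf12*, an intracellular member of the family, gave 0.09 and 0.29 with its brightest probe (adjusted p 0.569). Another *Fgf12* probe gave −0.01 and 0.23, and the last gave 0.01 and 0.14. *Fgf10*, the mesenchymal relative of *Fgf7*, gave 0.17 on array 1 and 0.16 on array 2, and the difference between the 2 genes was not tested.

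Of 5 receptor genes tested (*Kl* and *Klb* were too near background), 4 were lower on both arrays, beside 27.5% of all genes. None passed the test in limma. *Fgfr3* had the largest difference. Its brighter probe read 292 in IWP-2 against 636 in control on array 1 and 434 against 558 on array 2, with changes of −1.12 and −0.33 (mean −0.72 ± 0.56, SD, n = 2 arrays; 95% interval −1.17 to −0.28; adjusted p 0.136). A second *Fgfr3* probe gave −0.77 and −0.63, with an adjusted p of 0.0208 over probes, and the mean of both probes passed over genes (adjusted p 0.0401). *Fgfrl1*, a receptor without a kinase domain, gave −0.22 and −0.34 (adjusted p 0.292). *Fgfr2*, the receptor of the ureteric epithelium, gave −0.10 and −0.37 with its brighter probe and −0.23 and −0.29 with the other (adjusted p for the gene 0.444). *Fgfr1*, with 3 probes, gave −0.08 and −0.05 with its brightest (adjusted p 0.929), 0.01 and −0.22 with another, and −0.07 and −0.51 with the last.

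The 22 adaptors and kinases between receptor and ERK had a median of −0.01 and a range from −0.23 to 0.20. Of these, 3 were higher and 7 lower on both arrays, and 0 passed the test in limma or reached the unadjusted threshold of 0.05. Among those with 1 sign on both arrays, the widest were the adaptors *Gab1* (−0.32 and −0.15) and *Shc1* (0.18 and 0.21) and the scaffold *Ksr1* (−0.08 and −0.22). The 15 other negative regulators had a median of 0.08, with 5 higher and 5 lower on both arrays and 0 past the adjusted threshold. The phosphatase genes among them went different ways in value: *Dusp4* gave 0.44 and 0.20 and *Dusp1* 0.21 and 0.23, while *Dusp9* gave −0.30 and −0.40 (adjusted p in limma 0.261, 0.420 and 0.178).

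The list of other ERK response genes held 27, with *Egr3* and *Egr4* too near background. Of the 25 tested, 12 were higher on both arrays and 5 lower on both, with a median of 0.05, and 0 passed the adjusted threshold in limma. Over all genes 28.5% were higher and 27.5% lower on both arrays. Without adjustment 6 of the 25 were past 0.05 as higher and 2 as lower, beside 8.67% and 4.74% of all genes. The 3 largest increases were those of immediate-early genes. Other immediate-early genes, *Jun* (−0.15 and −0.26) and *Myc* (−0.32 and −0.17), were lower on both arrays. *Fosb*, an AP-1 subunit, gave 0.33 and 0.64, *Ier3* 0.19 and 0.64, and *Atf3*, a stress-induced bZIP factor, 0.22 and 0.61 (adjusted p 0.118, 0.225 and 0.205). As for *Egr1*, the change of all 3 was larger on array 2.

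**Figure D3:**
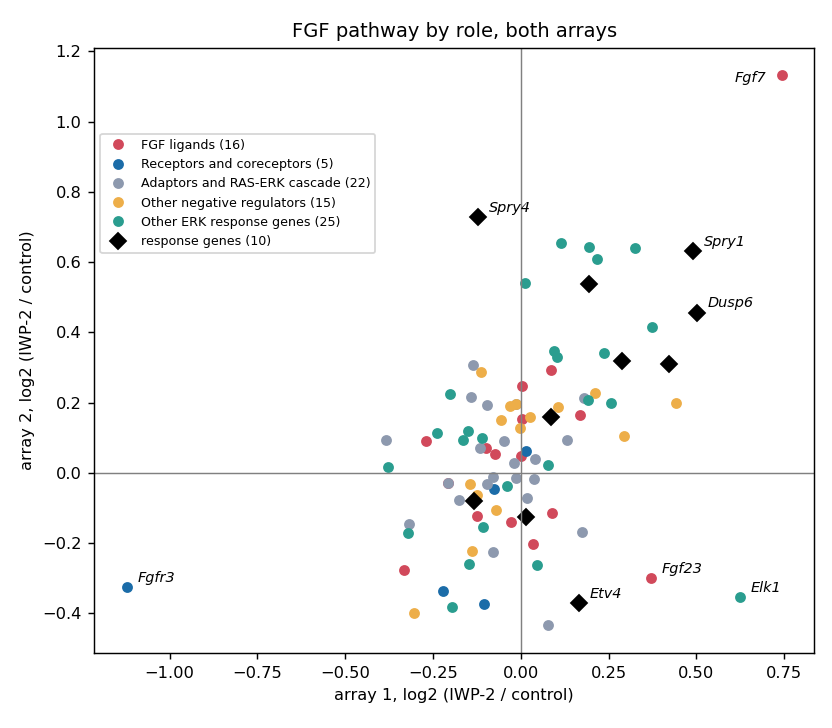
Log2 change on array 1 (x axis) against array 2 (y axis) for 83 pathway genes coloured by role and the 10 response genes (black diamonds). *Fgf7* lies alone at the upper right and *Fgfr3* at the left, *Spry1* and *Dusp6* lie with 0.46 or more on both axes, and most adaptors and kinases lie near the origin.

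Markers of the other cell types in these ureters also differed between the groups. For comparison, 28.5% of all genes were higher on both arrays and 27.5% lower on both. All 8 endothelial markers were higher on both arrays (median log2 change 0.46), with *Kdr* (0.74, adjusted p in limma 0.0359) and *Cldn5* (0.65, adjusted p 0.0347) past the test. Their summed processed intensity was 16270 to 17830 in IWP-2 and 10140 to 12950 in control ureters. All 8 macrophage markers were higher on both arrays (median 0.46), with *Adgre1* past the test (0.92, adjusted p 0.0409) and sums of 14170 to 15520 against 9905 to 12230. Of 7 red blood cell markers 6 were higher on both (median 0.48; sums of 117300 to 183300 against 74580 to 165500), and of 7 neural markers 6 (median 0.36; sums of 43170 to 49010 against 34550 to 35940), none past the test. Of 7 markers of ureteric mesenchyme 6 were lower on both arrays (median −0.73; sums of 50840 to 54330 against 61560 to 65650), and *Foxf1* (−1.57, adjusted p 0.0039), *Tbx18* (−1.03, adjusted p 0.0126), *Tcf21* (−0.77, adjusted p 0.0248) and *Bmp4* (−0.73, adjusted p 0.0416) passed. The study names *Foxf1* and *Bmp4* as likely direct WNT targets and reports *Tbx18* lost in ureteric mesenchyme lacking *Ctnnb1*. Whether fewer mesenchymal cells or less RNA per cell lay behind the lower values of these markers was not tested. *Vim* was higher on both arrays (0.35 and 0.26), and *Pdgfra* gave −0.33 and −0.05. The 8 epithelial markers had a median of 0.10, with 3 higher and 1 lower on both arrays and sums of 48540 to 53810 against 46270 to 47510. Every listed marker, epithelial and mesenchymal ones included, stood well above background in over 0.5 of its spots in all 4 channels. *Spry1*, *Dusp6*, *Spry2*, *Etv1*, *Egr1* and *Fgf7* were higher on both arrays, and so were most endothelial, macrophage, red blood cell and neural markers. The same held for 3 of the 8 epithelial markers. With 2 arrays of the same comparison, whether these values vary together cannot be judged. The part of these cells in the values of these genes was not tested.

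The 6 markers of kidney mesenchyme, which borders the ureter, varied widely between the arrays. *Sall1*, *Six2* and *Eya1* were higher on array 1 and lower on array 2, as was *Etv4*. *Spry4* changed sign in the other order (−0.12 and 0.73). A change of sign was common, since over all genes 28.5% were higher on both arrays and 27.5% lower on both. *Sall1* gave 0.29 on array 1 and −1.81 on array 2, *Six2* 1.03 and −0.38, *Wt1* −0.14 and −1.29 and *Eya1* 0.16 and −0.21. *Cited1* gave 0.22 and 0.14, and *Meox1* gave 1.20 and 0.72 and passed the test (adjusted p in limma 0.0286). Their summed processed intensity was 16210 in IWP-2 against 13410 in control on array 1, and 12810 against 16210 on array 2. Whether kidney tissue in the pools had a part in the values of *Etv4*, *Etv5* or *Spry4* was not tested.

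**Figure D4:**
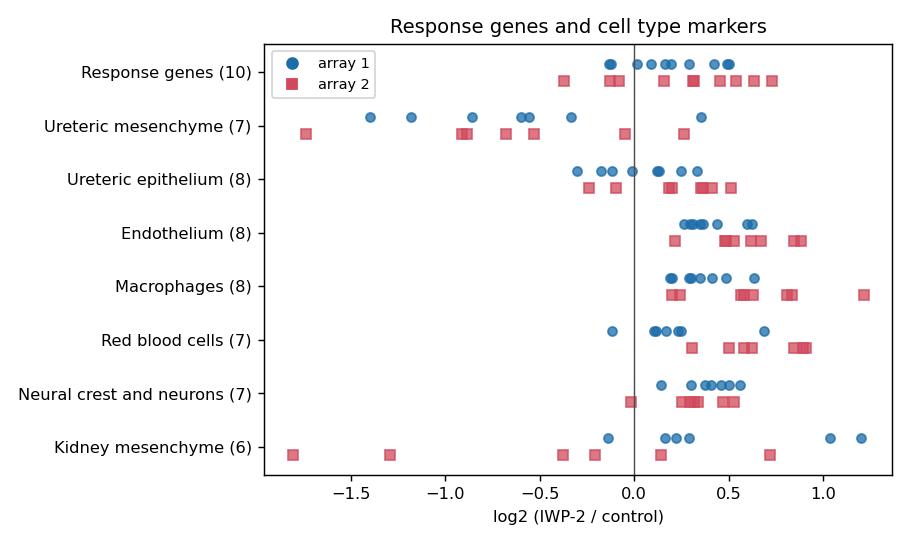
Log2 change (x axis) of each gene on array 1 (circles) and array 2 (squares) for the 10 response genes and 7 lists of cell type markers (rows, number of genes in brackets). Endothelial and macrophage markers lie above 0 on both arrays, most mesenchymal markers below 0, and the kidney mesenchyme markers spread from −1.81 to 1.20.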

How the data were processed

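RNA of pooled ureters was hybridised to 2 two-colour Agilent arrays (design 084956, coordinates on mm9). The authors scanned them with Feature Extraction (12.2.0.7 in the file headers, 10.7.3.1 in the submitters' processing notes), and the deposited files hold spot intensity in both dyes, before and after Agilent's background and dye correction. A deposited value table holds signed fold changes, treated here as a score and used only as an alternative. In R 4.3.3 with limma 3.58.1, mean signals were background-corrected (normexp, offset 50) and loess-normalized within arrays. Control spots had weight 0 and outlier spots were dropped. Replicate spots were then averaged, and probes entered the fit where over 0.5 of their spots were well above background in 1 group on both arrays, and the brightest kept probe stood for a gene. Ratios were turned to IWP-2 over control and fitted with lmFit and eBayes (1 residual degree of freedom), with Benjamini-Hochberg adjustment over all genes at 0.05. The replicates are separate pools, and the number of arrays limits the precision. The p-values combine a gene's own spread between the 2 pairs of pools with a spread estimated over all genes. For *Spry2* the SD between arrays was 0.02, whereas the standard error in the fit was 0.10. The procedure was run on simulated spots with true changes larger than those of the response genes. Recovery of changes as small as theirs was not tested. The members, the pathway and marker lists and the tests were chosen with earlier results of these data known. All members, the pathway genes past the threshold and the 3 widest of each role that changed the same way on both arrays were named, as were marker genes past the threshold. *Fgf10*, *Fgfr1*, *Jun*, *Myc*, *Vim*, *Pdgfra* and the kidney mesenchyme markers were named after their values were seen.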

Additional observations from a re-analysis of the deposited data

How the results depend on the processing

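The mean change of each of the 10 response genes kept its direction, or was 0 in the value table for *Etv5*, under 8 alternatives: no background correction, processed intensities, median centring, no filter on dim probes, outlier spots kept, a trended and robust spread prior, the mean over a gene's probes, and the deposited value table. The calls did not hold as well. Response genes past the threshold numbered 0 in the reported setting, 2 as higher with the trended and robust prior, 1 with the mean over probes, 2 as higher and 1 as lower with the value table (whose signed folds are rounded), and 2 as higher at a threshold of 0.10. Response gene probes past the threshold as higher went from 1 to 0 with no background correction, processed intensities, median centring, no filter or outlier spots kept, and to 2 with the trended prior. Pathway genes past the threshold as higher went from 1 to 0 with processed intensities, median centring or no filter and to 4 with the value table, and as lower from 0 to 1 with the mean over probes and to 9 with the value table. Over all genes, 123 higher and 232 lower became 74 higher without background correction, 75 higher with processed intensities, 7 and 36 with median centring, 21 and 98 with no filter, 226 higher with the trended prior, 224 higher with the mean over probes, and 1038 and 1322 with the value table. The median change of the response genes was 0.18 without replicate 2 and 0.31 without replicate 1, values with no test. A model of separate channels with a dye term gave no test, since 2 ratios and 2 terms leave 0 residual degrees of freedom. The fit was made on the ratio of treated to control within each array, so the pairing of pools on an array is part of every value. The cause of these differences was not tested. With 2 arrays, a difference of the size and evenness of *Spry2* did not pass the adjusted threshold.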
